A study of Mus musculus with 3 samples.

Results

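The ephrin, semaphorin, plexin, Slit and netrin families were described in RNA of sorted lymphatic endothelial cells from the large bowel of mice. The members are the genes whose symbol names an Eph receptor, an ephrin, a semaphorin, a plexin, a Slit, a Robo receptor, a netrin of the Ntn series or a UNC5 receptor, and 66 of the 24091 genes in the table met this rule. They comprise 35 ligands and 31 receptors, and neuropilins are not among them. All 3 libraries, numbered replicates 1 to 3, belong to 1 group of C57BL/6 mice, with no treatment or genotype named in the sample labels. Cells were freed from tissue by digestion and sorted on markers that included CD31, podoplanin and LYVE1. Whether each library stands for another animal is not stated, and their spread may be purely technical. The series title names capillaries and collectors, which the libraries do not separate. The unit is TPM, a length-scaled share of all transcripts in a library, which corrects for transcript length and for library size, and a value is given as the mean ± SD over 3 libraries where no library is named. With 1 group there was no comparison of conditions, and genes were compared within each library and libraries with each other.

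These families were named for steering growing axons and are used again in vessels. Ephrins and many semaphorins are membrane-bound ligands that act on a neighbouring cell, whereas class 3 semaphorins, Slits and netrins are secreted. Eph receptors are receptor tyrosine kinases that bind ephrin-A ligands, held by a lipid anchor, or ephrin-B ligands, which span the membrane and can signal in reverse. Plexins receive semaphorins, with neuropilins as co-receptors for most of class 3, while Slits act on the Robo family and netrins on the UNC5 family. In lymphatic vessels, ephrin-B2 and EphB4 are needed for remodelling and valves, and semaphorin 3A takes part in valve formation. In the gut epithelium, EphB2, EphB3 and their ephrin-B ligands keep cell types in place along the crypt.

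The 3 libraries differed in ways that touch these genes. The 11 lymphatic endothelial markers were all detected and summed to 1692, 1771 and 984 TPM in replicates 1, 2 and 3, so that replicate 3 was lowest. The 10 fibroblast markers summed to 207, 141 and 518, and the 10 macrophage markers to 313, 237 and 614, both highest in replicate 3. The 18 epithelial markers summed to 20550, 24090 and 25910, above the lymphatic list in every library, and none of these markers was at 0 in any library. A level below therefore cannot be assigned to lymphatic cells, and in such bulk RNA fewer cells of a type and less RNA per cell cannot be told apart. TPM keeps no depth, but among 4666 genes with a single transcript the low values fell on regular steps. Such low values came from 344, 372 and 376 of these genes in replicates 1, 2 and 3. By these steps a TPM of 1 stood, per kilobase of transcript, for about 32.6, 28.7 and 26.3 fragments in replicates 1, 2 and 3, and fragment numbers below are estimates made from them.

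Most members were present. In each of the 3 libraries, 41 of the 66 members, or 62.1%, reached a TPM of at least 1 and are called detected, against 53.4% of all genes in the table. A mean of 10 TPM or more was reached by 21 members, or 31.8%, against 35.0% of all genes. The median member had a mean of 4.34 TPM, and the median over all genes was 2.48 TPM. Of the ligands 24 of 35 were detected, and of the receptors 17 of 31. A single gene carried most of the summed TPM in many families: Efna1 carried 85.8 ± 1.9% of the ephrin-A total, Ntn1 84.7 ± 10.1% of the netrin total and Unc5b 83.4 ± 1.5% of the UNC5 total. Plxnb2 carried 76.3 ± 2.2% of the plexin total and Ephb4 69.7 ± 3.51% of the EphB total. At the other end, 21 of the 66 members stayed below a TPM of 1 in all 3 libraries, as did 9871 of the 24091 genes. Of these 21 members, 4 stayed below 0.1. Epha8 was listed at 0 in each library, as were 5024 of all genes.

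**Figure D1:**
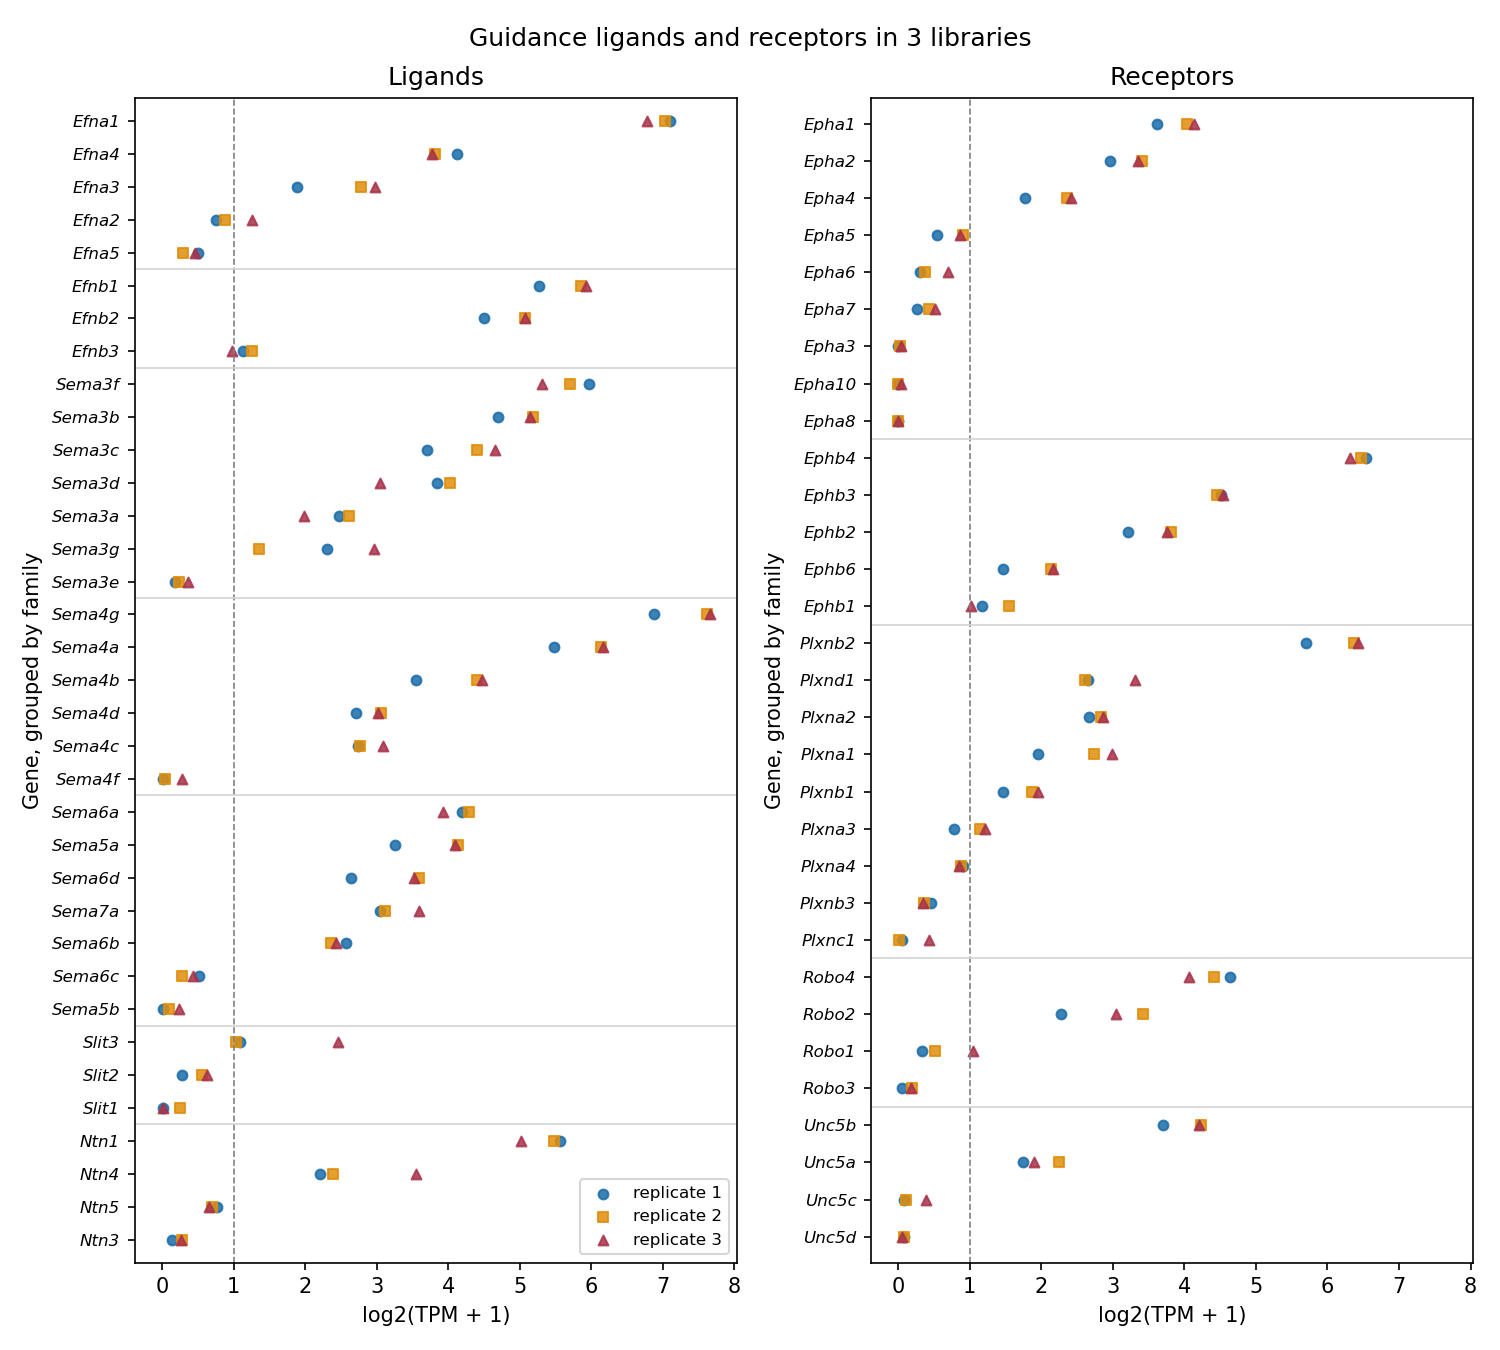
Level of each of the 66 members on the log2(TPM + 1) axis, with 1 symbol per library, ligands on the left and receptors on the right, grouped by family and ordered by mean; the dashed line marks a TPM of 1. Sema4g and Efna1 are the highest ligands, Ephb4 and Plxnb2 the highest receptors, and Epha8 is at 0 in all 3 libraries.

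EphB4 and ephrin-B2 form the best known ligand and receptor pair of vessels. Ephb4 (Entrez 13846, chromosome 5, 137350109 to 137374522 in GRCm38), the receptor of veins and lymphatics, stood at 91.9, 87.7 and 78.4 TPM in replicates 1, 2 and 3. Its mean of 86.0 ± 6.92, the highest among the receptors of all families, lay at percentile 93.1 of all genes. In replicate 3, however, Plxnb2 was above it, at 85.3 TPM. Efnb2 (Entrez 13642, chromosome 8, 8617235 to 8661242), which encodes the ligand ephrin-B2 of arteries and lymphatic valves, stood at 21.7, 32.7 and 32.6 TPM. Efnb1 (Entrez 13641, chromosome X, 99136061 to 99149022), a further ephrin-B gene and one that colon epithelium also uses, stood at 37.6, 56.9 and 59.5 TPM. Receptor and ligand thus differed in their order over libraries, since Ephb4 was lowest in replicate 3 and both ephrin-B genes were lowest in replicate 1.

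The genes shown are the receptor, lowest in replicate 3, and the 2 detected ephrin-B ligands, lowest in replicate 1. For each of these 3 genes, the 250 bases before the annotated start are given. They are from RefSeq on GRCm38.p6 and run 5′ to 3′ on the strand of the gene. Capitals mark matches on either strand to CNGGAAG, a core shared by ETS factors of endothelium, to AACAAT, a core of SOX factors, or to TTTATNG, a core of the intestinal CDX factors.
Ephb4, chr5:137349859-137350108, plus strand: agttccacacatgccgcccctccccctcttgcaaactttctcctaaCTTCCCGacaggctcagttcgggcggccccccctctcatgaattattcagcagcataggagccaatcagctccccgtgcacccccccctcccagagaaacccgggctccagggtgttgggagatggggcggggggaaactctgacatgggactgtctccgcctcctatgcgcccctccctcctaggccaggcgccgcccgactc
Efnb2, chr8:8661243-8661492, minus strand: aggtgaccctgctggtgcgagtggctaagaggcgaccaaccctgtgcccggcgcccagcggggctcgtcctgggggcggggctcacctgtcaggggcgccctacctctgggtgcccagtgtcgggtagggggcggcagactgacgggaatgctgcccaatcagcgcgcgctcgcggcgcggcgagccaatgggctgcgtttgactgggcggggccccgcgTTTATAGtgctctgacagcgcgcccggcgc
Efnb1, chrX:99135811-99136060, plus strand: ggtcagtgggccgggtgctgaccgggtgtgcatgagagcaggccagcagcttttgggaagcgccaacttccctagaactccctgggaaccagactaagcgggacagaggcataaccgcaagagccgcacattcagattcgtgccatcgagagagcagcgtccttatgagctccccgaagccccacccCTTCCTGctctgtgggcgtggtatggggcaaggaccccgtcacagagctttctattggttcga
The Ephb4 and Efnb1 windows hold 1 match each to CNGGAAG and none to the others, and the Efnb2 window holds 1 match to TTTATNG alone. The GC content of the windows is 64%, 72% and 60% in this order. Of the 66 members, 57 had such a window, and 22 of these 57 genes, or 38.6%, held CNGGAAG, against 29.2% of the 27025 genes with a window. AACAAT was present for 3 of the 57, or 5.26%, against 10.9% of all genes, and TTTATNG for 4, or 7.02%, against 11.3%. The members' windows were richer in G and C, with a median of 64.4% against 52.4% for all windows, which bears on how often such letters occur. A match in these letters is a description and not a binding site.

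The other EphB receptors are best known from crypt epithelium. Ephb3 stood at 21.9, 20.9 and 22.3 TPM and had the most even level of the members above 10 TPM, its highest library being 1.07 times its lowest. Ephb2 stood at 8.25, 13.1 and 12.5 TPM, lowest in replicate 1. Ephb6, whose kinase is inactive, reached 1.76, 3.37 and 3.47 TPM, and Ephb1 1.24, 1.92 and 1.03 TPM. All 5 EphB genes were detected, and the ligand Efnb3 averaged 1.18 ± 0.208 TPM and fell short of 1 in replicate 3. Ephb4 exceeded Ephb2 by 3.33, 2.65 and 2.55 on the log2(TPM + 1) scale in replicates 1, 2 and 3, a mean of 2.84 ± 0.421, or 7.19-fold.

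EphA receptors were fewer and lower. Epha1 (11.2, 15.5 and 16.6 TPM), a receptor of epithelia, and Epha2 (6.79, 9.57 and 9.23 TPM), found on epithelium and endothelium, were the highest. Epha4, a receptor of broad binding range, followed with 3.64 ± 1.06 TPM. All of these 3 were lowest in replicate 1, and the other 6 EphA genes stayed below 1 TPM in every library. Epha5 averaged 0.719 ± 0.229, Epha6 0.387 ± 0.206 and Epha7 0.324 ± 0.121 TPM. Epha3 (at 0 in replicate 1) and Epha10 (at 0 in replicates 1 and 2) rested on at most 4.3 and 2.7 estimated fragments in a library.

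The ephrin-A ligands showed the reverse balance. Efna1 (Entrez 13636, chromosome 3, 89271730 to 89280951), a ligand of EphA2 that inflammatory signals induce in endothelium, stood at 137, 130 and 109 TPM and was lowest in replicate 3. Efna4 stood at 16.4, 13 and 12.7 TPM. Efna3, in contrast, was lowest in replicate 1, with 2.69, 5.88 and 6.84 TPM. Efna2 (0.970 ± 0.376 TPM) and Efna5 (0.337 ± 0.10 TPM) were near or below 1. Efna1 lay 4.14, 3.63 and 3.43 above Epha2 on the log2(TPM + 1) scale, a mean of 3.73 ± 0.37, or 13.3-fold.

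Of the class 3 semaphorins, 6 of 7 were detected. Sema3f (Entrez 20350, chromosome 9, 107681499 to 107710475), a secreted ligand that acts through neuropilin-2, led with 61.5, 50.8 and 38.5 TPM. Sema3b stood at 24.9, 35.2 and 34.3 TPM and Sema3c at 12.1, 20 and 24.3 TPM, both lowest in replicate 1. Sema3d (Entrez 108151, chromosome 5, 12383161 to 12588953) stood at 13.3, 15.2 and 7.24 TPM, and Sema3a, the valve semaphorin, at 4.52, 5.12 and 2.95 TPM. Members of mean TPM 1 or more numbered 43. Of these, only Sema3d and Sema3a were at least 1.5 times lower in replicate 3 than in both other libraries. These 2 are 4.65% of the 43, against 1.84% of the 13606 genes of that level. Sema3g, known from arterial endothelium, had the largest SD of log2(TPM + 1) of the members of mean TPM 1 or more (0.81), with 3.94, 1.55 and 6.75 TPM on 557, 193 and 771 estimated fragments. Sema3e, a ligand that binds plexin-D1 without neuropilin, stood at 0.136, 0.176 and 0.283 TPM.

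Class 4 semaphorins, which span the membrane, held the member of highest mean. In replicate 1, Efna1 was above that member, at 137 against 117 TPM. Sema4g (Entrez 26456, chromosome 19, 44988743 to 45003397), a ligand of plexin-B2, stood at 117, 196 and 200 TPM, at percentile 96.6 of all genes. Sema4a, known from immune cells and epithelia, stood at 43.3, 69.1 and 70.7 TPM, and Sema4b at 10.7, 20.2 and 21.1 TPM. Sema4d, the plexin-B1 ligand also called CD100, stood at 5.56, 7.31 and 7.12 TPM, and Sema4c, a further plexin-B2 ligand, averaged 6.34 ± 1.03 TPM. All 5 of these were lowest in replicate 1, in which Sema4g stood at 0.59 times the mean of the other libraries. Sema4f was near the floor, at 0.0813 ± 0.109 TPM.

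Semaphorins of classes 5 to 7 were of middle level. Sema6a, a membrane ligand of A-type plexins, stood at 17.3, 18.6 and 14.2 TPM and was lowest in replicate 3. Sema5a, which carries thrombospondin repeats, stood at 8.54, 16.5 and 16.1 TPM, and Sema6d, a ligand of plexin-A1, at 5.20, 11 and 10.5 TPM, both lowest in replicate 1. Sema7a, which is held by a lipid anchor and binds plexin-C1, stood at 7.27, 7.64 and 11 TPM. Sema6b averaged 4.48 ± 0.407, Sema6c 0.327 ± 0.108 and Sema5b 0.0826 ± 0.0863 TPM.

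Among the plexins, which receive these signals, Plxnb2 (Entrez 140570, chromosome 15, 89155546 to 89182018) stood at 50.8, 81.6 and 85.3 TPM and was far above the rest. Plxnd1, the plexin of vessel endothelium, stood at 5.27, 5.10 and 8.91 TPM and was highest in replicate 3. Plxna2 stood at 5.33, 6.15 and 6.25 TPM and Plxna1 at 2.88, 5.69 and 6.91 TPM. Plxnb1 stood at 1.75, 2.66 and 2.88 TPM, and these 5 were the plexins detected in every library. Plxna3 (1.08 ± 0.314), Plxna4 (0.837 ± 0.036) and Plxnb3 (0.31 ± 0.0606 TPM) were near or below 1. Plxnc1, a receptor also known from leukocytes, was listed at 0.0361, 0.0102 and 0.344 TPM, on about 8.3, 2.1 and 64 fragments.

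Slit ligands were scarce, while 2 of the Robo receptors were not. Robo4 (Entrez 74144, chromosome 9, 37401902 to 37414023), the Robo gene of endothelium, stood at 24, 20.3 and 15.7 TPM and was lowest in replicate 3. Robo2 stood at 3.85, 9.71 and 7.23 TPM, while Robo1 stood at 0.261, 0.425 and 1.07 TPM and Robo3 averaged 0.104 ± 0.0551 TPM. Slit3 (Entrez 20564, chromosome 11, 35121456 to 35708507) stood at 1.13, 1.05 and 4.50 TPM, on 184, 152 and 596 estimated fragments, so that replicate 3 held 4.13 times the mean of the other libraries. Slit2 stood at 0.205, 0.472 and 0.55 TPM, and Slit1 averaged 0.0688 ± 0.102 TPM. Slit2 minus Robo4 was -3.89 ± 0.473 on the log2(TPM + 1) scale and -5.71 ± 1.04 on log2(TPM), since the added 1 compresses differences from genes below 1 TPM. Robo4 minus Robo1 was likewise 3.74 ± 0.664 and 5.33 ± 1.34.

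The netrin family had a strong secreted ligand and a strong receptor. Ntn1 (Entrez 18208, chromosome 11, 68209364 to 68386826), the founding netrin, stood at 46.4, 43.6 and 31.4 TPM, lowest in replicate 3. Ntn4, a netrin of basement membranes, stood at 3.59, 4.23 and 10.8 TPM, highest in replicate 3 at 2.75 times the mean of the others. Ntn5 averaged 0.63 ± 0.0614 and Ntn3 0.171 ± 0.064 TPM. Unc5b (Entrez 107449, chromosome 10, 60762594 to 60831581), the netrin receptor of vessel sprouts, stood at 12, 17.8 and 17.4 TPM. Unc5a averaged 2.93 ± 0.716 TPM, and Unc5c (0.15 ± 0.142) and Unc5d (0.0492 ± 0.0134 TPM) were low. The classical netrin receptor gene Dcc, which is not a member, stood at 0.274 ± 0.157 TPM, and its relative Neo1 at 14.8 ± 2.39 TPM.

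Ligands were set against receptors of the family that receives them, and related genes against each other, in 13 pairs within each library. Whether a ligand binds the receptor it is paired with was not tested. In 12 of the 13 pairs the difference had the same sign in 3 of 3 libraries. The exact two-sided sign-flip permutation test gave p = 0.25 for each of these 12, which is as low as this design goes. The permutation p was 0.271 once adjusted over all 13 pairs by Benjamini-Hochberg, so no pair could pass a threshold of 0.05. The receptor was the higher partner for Efnb2 and Ephb4, where the difference was -2.04, -1.40 and -1.24 (mean -1.56 ± 0.421, log2), or 2.95-fold. It was also higher for Sema3e and Plxnd1 (-2.60 ± 0.309, and -5.04 ± 0.213 on log2(TPM)) and for Ntn4 and Unc5b (-1.33 ± 0.619). The ligand was the higher partner for Sema7a over Plxnc1, where the low level of Plxnc1 made the size depend on the pseudocount: 3.09 ± 0.0833 with 1, 5.51 ± 0.774 with 0.1 and 7.40 ± 2.29 with none. It was also higher for Sema6a over Plxna2 (1.35 ± 0.247), Ntn1 over Unc5b (1.31 ± 0.527) and Sema4d over Plxnb1 (1.17 ± 0.0949). Efnb2 lay below Efnb1 by a nearly constant amount, -0.77, -0.78 and -0.85 (mean -0.80 ± 0.0447). Sema3a and Plxna1 were the pair without a common sign, at 0.51, -0.13 and -1.0 (exact p = 0.75), and the mean of -0.21 became 0.19 without replicate 3.

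**Figure D2:**
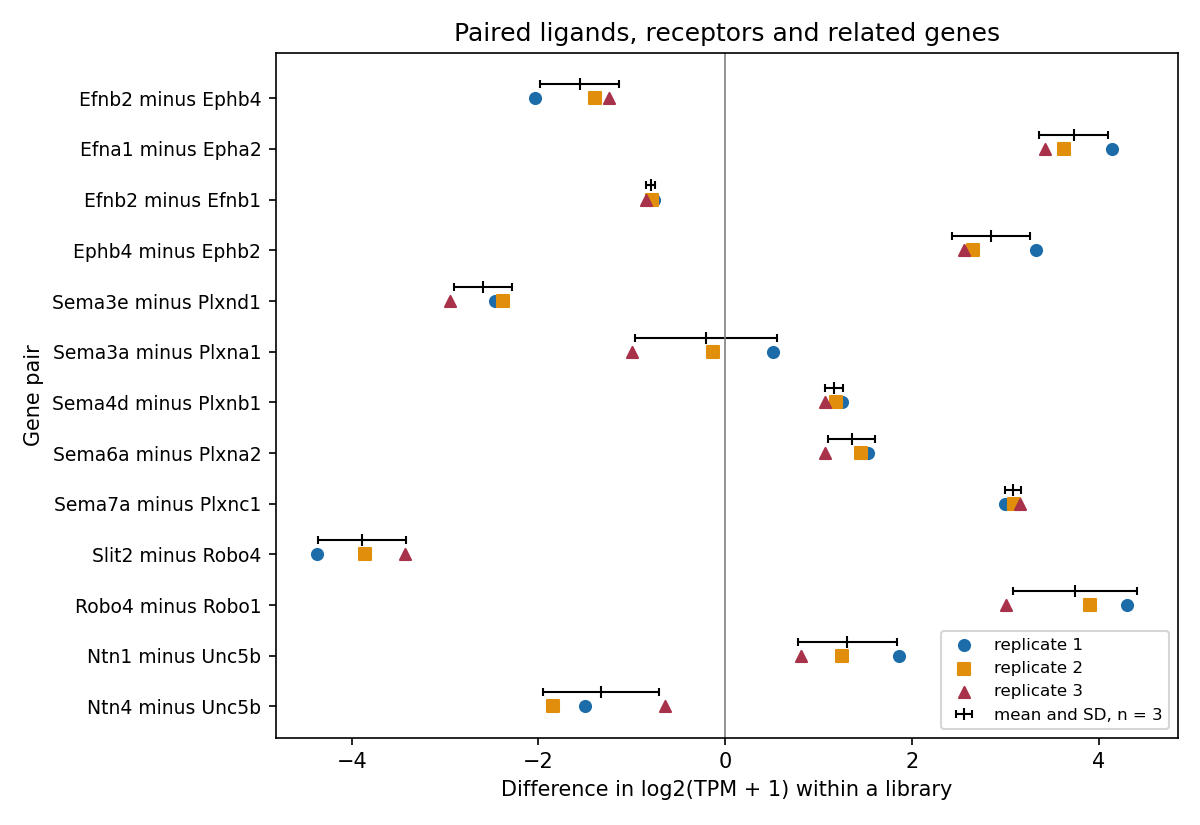
Difference in log2(TPM + 1) between the 2 genes of each of 13 pairs, 1 symbol per library, with the mean and SD of the 3 libraries drawn above the symbols. All symbols lie on the same side of 0 in 12 pairs, and those of Sema3a minus Plxna1 lie on both sides, from -1.0 to 0.51.

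The share of members lowest in a given library was near that of all genes. Of the 43 members of mean TPM 1 or more, 11 were lowest in replicate 3, or 25.6%, against 22.4% of all 13606 genes of that level, and replicate 1 was lowest for 27, or 62.8%, against 62.2%. They were Efna1, Efna4, Efnb3, Ephb1, Ephb4, Ntn1, Robo4, Sema3a, Sema3d, Sema3f and Sema6a. Of these 11, 8 are ligands, as are 25 of the 43. The lymphatic markers showed the same order in 10 of 11, with a median replicate 3 level of 0.598 times the mean of the others, and the markers of all endothelium in 10 of 11, with 0.876. Among the members, Sema3d stood at 0.509, Sema3f at 0.687, Ntn1 at 0.697, Robo4 at 0.708, Efna1 at 0.817 and Ephb4 at 0.873 times. The part of the shift in these markers in the members' values was not tested.

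In the other direction, 4 of the 43 members, or 9.3%, stood at least 1.5 times higher in replicate 3 than in both other libraries. The share was 5.34% of all genes of mean TPM 1 or more. These were Slit3, Ntn4, Sema3g and Plxnd1, at 4.13, 2.75, 2.46 and 1.72 times the mean of the others. With median-of-ratios scaling, 2 members remained, Slit3 and Ntn4, against 4.53% of all genes. The fibroblast markers were highest in replicate 3 in 10 of 10, with a median of 3.13 times, the smooth muscle and pericyte markers in 10 of 10, with 1.73 times, and the macrophage markers in 9 of 10, with 2.48 times. The 6 lymphocyte markers of mean TPM 1 or more were also all highest there, with 2.51 times, at a summed level of 9.42, 9.78 and 29.6 TPM for the list of 9. Blood endothelial markers were mixed, with 7 of 13 highest in replicate 3 and a median of 1.98 times. The part of these cell types in the levels of Slit3, Ntn4, Sema3g and Plxnd1 was not tested. A range of at least 2 times between the highest and lowest library was found for 9 of the 43 members, or 20.9%, against 12% of all genes. In all, 21 of the 43 members were highest in replicate 3, or 48.8%, against 41.3% of all genes.

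**Figure D3:**
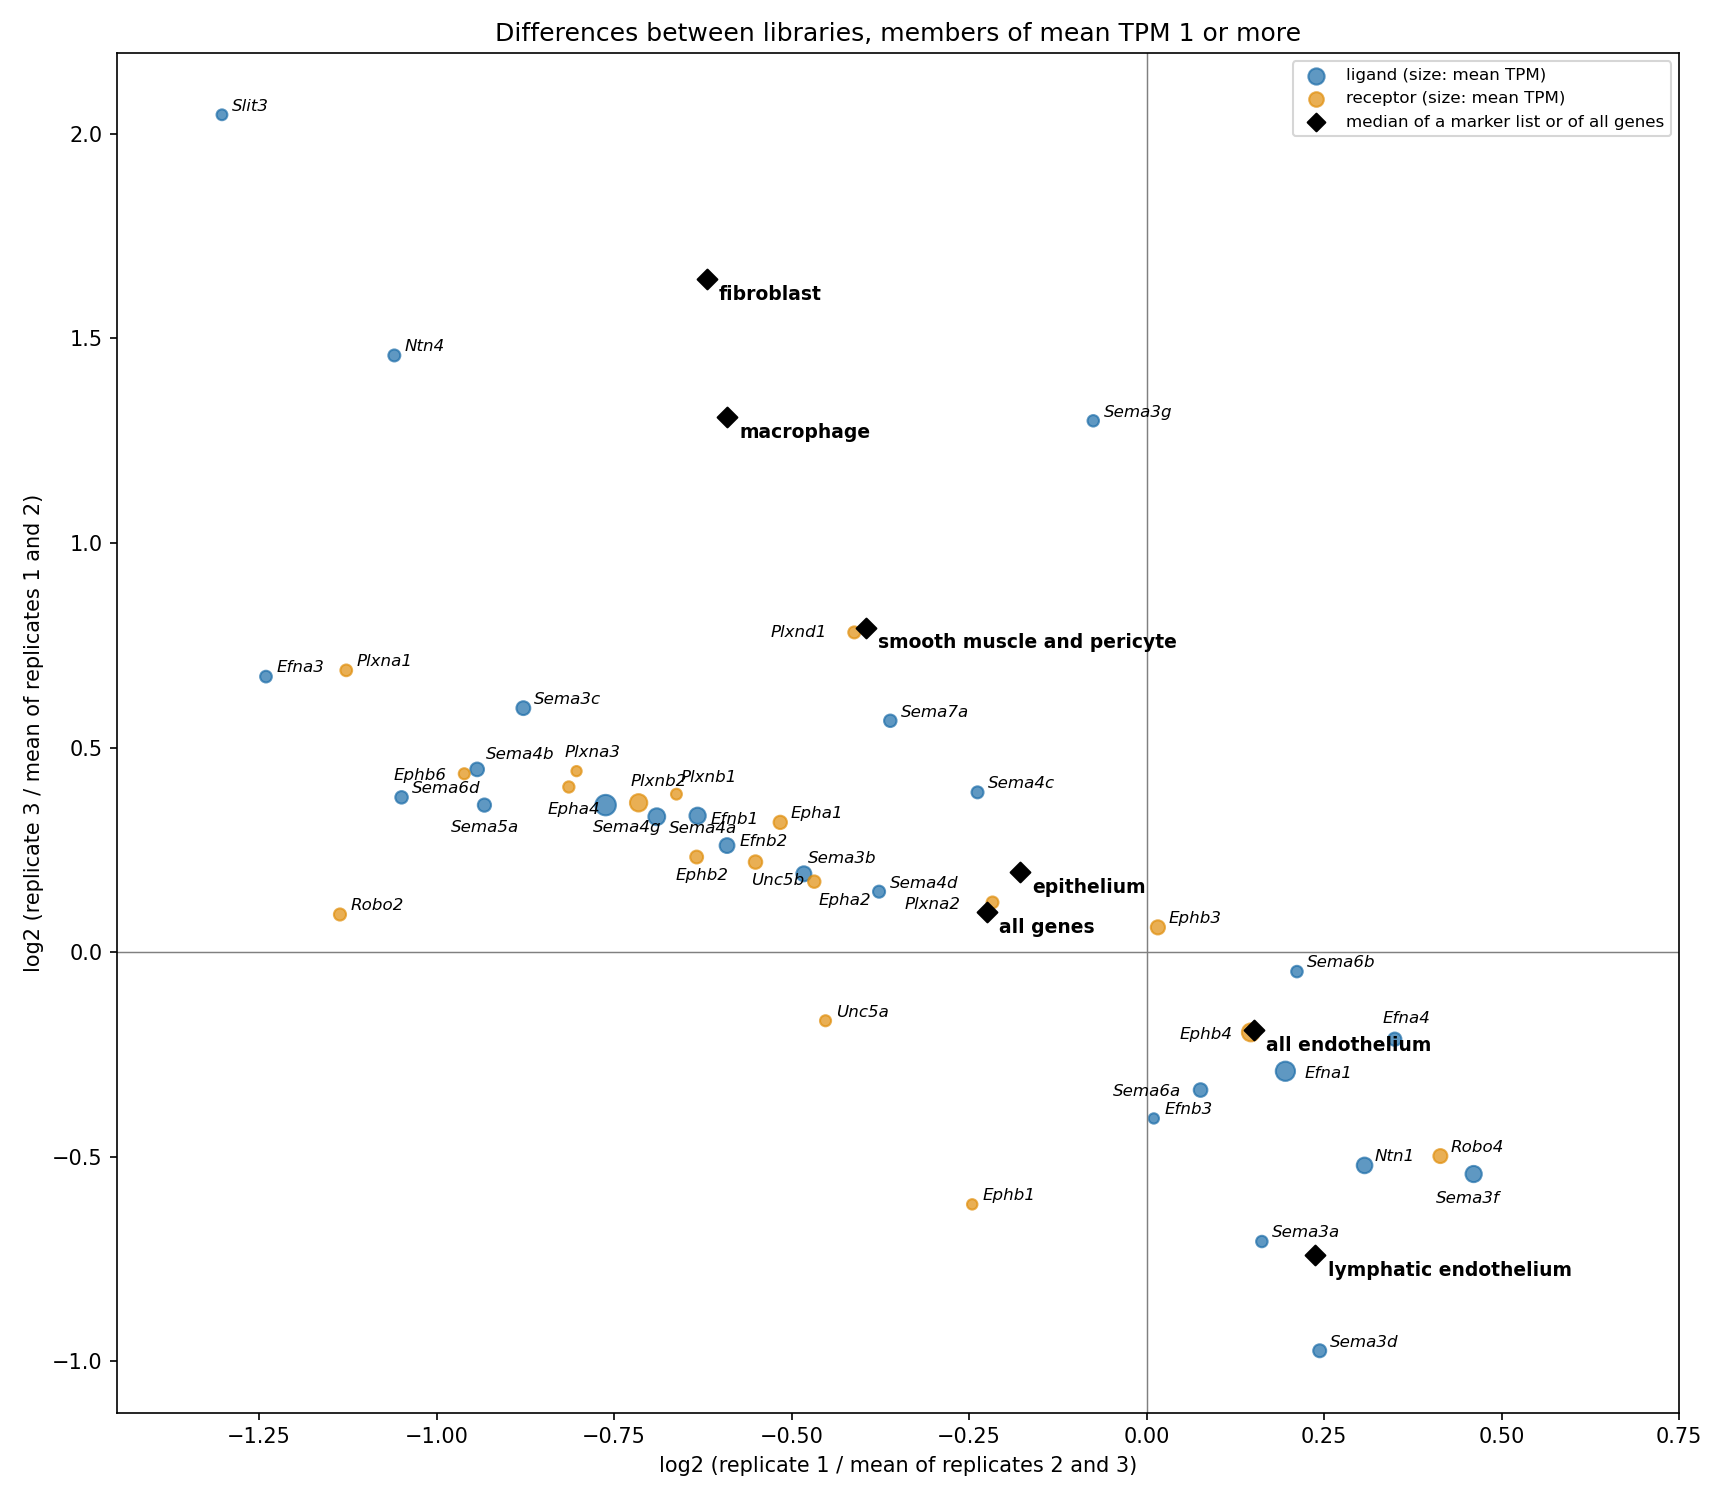
Members of mean TPM 1 or more by their level in replicate 1 (horizontal axis) and in replicate 3 (vertical axis), each as the log2 ratio to the mean of the other libraries, so that the axes share libraries. Black diamonds are medians of marker lists and of all genes. Sema3d, Sema3a, Sema3f, Robo4, Ntn1, Efna1, Efna4, Ephb4, Sema6a, Sema6b and Efnb3 lie at lower right. The medians of the lymphatic markers and of the markers of all endothelium lie there too. Slit3 and Ntn4 are the highest members at upper left. The medians of the epithelial, fibroblast, smooth muscle and macrophage markers and of all genes lie there too.

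Among genes of mean TPM 1 or more, replicate 1 was lower than both other libraries by at least 1.5 times for 17 members. This was 39.5% of the members of that level, against 12.4% of all genes of that level. These 17 were Efna3, Efnb1, Efnb2, Epha4, Ephb2, Ephb6, Plxna1, Plxna3, Plxnb1, Plxnb2, Robo2, Sema3c, Sema4a, Sema4b, Sema4g, Sema5a and Sema6d. With median-of-ratios scaling the count was 7 members against 5.85% of all genes, the 7 being Efna3, Ephb6, Plxna1, Robo2, Sema4b, Sema5a and Sema6d. The median log2 ratio of replicate 1 to the other libraries over expressed genes was -0.21, that of replicate 3 was 0.10, and ribosomal protein genes took 22% of TPM in replicate 1 against 18.9% and 18.2% in replicates 2 and 3.

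Transcript length moved with this contrast. The longest transcript of the 43 members had a median of 4667 bases, against 3200 for all genes of mean TPM 1 or more. Over 5 equal bins of length, the median ratio of replicate 1 to the other libraries was 0.998, 0.919, 0.858, 0.802 and 0.70 from the shortest to the longest genes. In the longest bin, from 5064 bases, 33.1% of all genes were at least 1.5 times lower in replicate 1, as were 10 of the 18 members there, whose median ratio was 0.62. In the next bin, from 3723 bases, the share was 10.7% of all genes, with 4 of 14 members. Robo4, Ntn1, Sema3d and Sema3a, named here after their values were seen, lay on the other side, and with transcripts of 4952, 5874, 6307 and 5930 bases, stood in replicate 1 at 1.33, 1.24, 1.18 and 1.12 times the mean of the others.

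**Figure D4:**
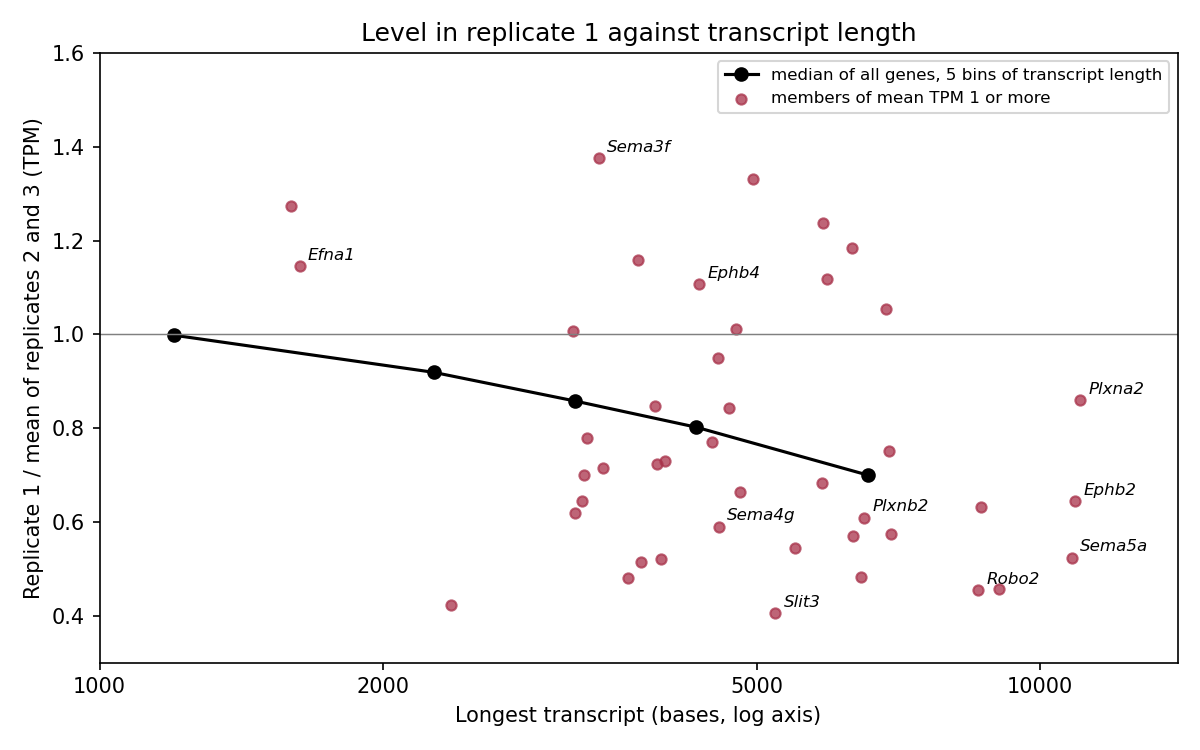
Level in replicate 1 divided by the mean of replicates 2 and 3 against the length of the longest transcript (log axis), for the 43 members of mean TPM 1 or more and, as black points joined by a line, the median of all genes in 5 bins of length. The line goes from 0.998 in the shortest bin to 0.70 in the longest, and members lie on both sides of it.

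Members were also grouped by the tissue they are best known from. The 9 genes known from vessel endothelium (Efnb2, Ephb4, Efna1, Plxnd1, Robo4, Unc5b, Sema3f, Sema3g and Sema6a) were all detected, with a median of 20.0 TPM and sums of 374, 364 and 321 TPM in replicates 1, 2 and 3. Of these, 5 were lowest in replicate 3, where 22.4% of all genes were lowest, and 2, Plxnd1 and Sema3g, were highest there. The 8 genes known from intestinal epithelium (Ephb2, Ephb3, Efnb1, Epha1, Epha2, Plxnb1, Plxnb2 and Sema4g) were all detected too, with a median of 18.1 TPM and sums of 255, 396 and 409 TPM, and 7 of the 8 were lowest in replicate 1, where 62.2% of all genes were lowest, and none in replicate 3. Of 14 genes known from mesenchyme and nerve, 7 were detected, or 50.0%, against 53.4% of all genes in the table. Another 6 stayed below 1 TPM in all libraries. The median of the 14 was 1.53 TPM, and Ntn1 was the highest of them. Of the 7 genes of mean TPM 1 or more in this group, 3 were lowest in replicate 3, against 22.4% of all genes. Another 3 were highest there, against 41.3%, and 3 were lowest in replicate 1, against 62.2%.

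Genes that work with these families were widely present, set against 53.4% detected and a median of 2.48 TPM over all genes. Of 12 partner receptors and ligands, 10 were detected, or 83.3%, with a median of 6.94 TPM. Rgmb (42.9 ± 7.69 TPM), a ligand of neogenin, Nrp2 (26.3 ± 2.84 TPM), the neuropilin of lymphatics, and Neo1 were the highest. Of 36 effectors inside the cell, 35 were detected, with a median of 13.4 TPM, led by the actin-severing protein gene Cfl1 (754 ± 4.58 TPM) and the GTPase genes Rac1 (313 ± 17.7 TPM) and Rhoa (267 ± 5.56 TPM).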

How the data were processed

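Cells of the large intestine of C57BL/6 mice were sorted as lymphatic endothelial cells and sequenced in bulk, giving 3 libraries of 1 group. The authors deposited TPM values per the file headers, 1 value for each of 24091 genes in each library, and the values sum to 999939, 999907 and 999896. The submitters' processing notes name mm10, Cell Ranger 6.0.1 and HTSeq. How TPM was computed and which annotation was used is not given in the sources used here. Reads of overlapping or near-identical genes may therefore have been split in ways that cannot be checked.

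Members were matched by symbol, and all 66 matched RefSeq genes of GRCm38.p6 by Entrez ID, with the same symbol. The members, gene lists and pairs were chosen with earlier results of these data known. Values in every library are given for members of mean TPM 10 or more, the highest ligand and receptor of each family, the genes of the pairs, and the 10 members that varied most between libraries (SD of log2(TPM + 1), members averaging at least 1 TPM). Of other pathway lists, the 3 highest genes are named. The list of membrane proteases is not reported here. Dcc, the motifs, and the counts of members lowest or at least 1.5 times apart in a library were added after the values were seen, as were the length bins.

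Pair differences were taken on log2(TPM + 1), with a pseudocount of 1, and tested by an exact two-sided sign-flip permutation, which with 3 libraries cannot give a p below 0.25. The depth was estimated from the spacing of TPM times length less 200 bases. Its phase score lay from 0.603 to 0.636, and from 0.118 to 0.139 when lengths were shuffled. Lengths are those of the longest GENCODE M21 transcript. The 1.5-fold calls were tested on simulated data, and the sign-flip test was checked on fixed values. The search for steps was run on simulated steps of known spacing. Transcript lengths did not enter that simulation, so it cannot check the length correction. Alternatives were other TPM minimums (0.5 and 5), a pseudocount of 0.1 or none, median-of-ratios scaling, TPM rescaled without 86 ribosomal protein genes (no mitochondrially encoded gene was matched), and leaving out each replicate. Software versions were pandas 2.3.3 and numpy 2.4.6 under Python 3.11.15, with matplotlib 3.10.9 for plots.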

Additional observations from a re-analysis of the deposited data

How the results depend on the processing

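The number of members detected kept within 1.5 times of 41 under its 8 alternatives, from 28 at a TPM minimum of 5 to 46 at 0.5. All 12 pair differences of a common sign kept their direction under the alternatives run. With no pseudocount the sizes grew for the pairs with a gene below 1 TPM: 3.09 became 7.40 for Sema7a minus Plxnc1, -2.60 became -5.04 for Sema3e minus Plxnd1, -3.89 became -5.71 for Slit2 minus Robo4, and 3.74 became 5.33 for Robo4 minus Robo1. Sema3a minus Plxna1 ranged from -0.56 without replicate 1 to 0.19 without replicate 3, and stayed below 0 elsewhere. Without a filter on low values, 33 of 66 members were highest in replicate 3, against 33.7% of all genes, where the filter left 21 of 43, since it leaves fewer genes. Median-of-ratios scaling took the members at least 1.5 times lower in replicate 1 from 17 to 7. It took those at least 1.5 times higher in replicate 3 from 4 to 2, against 4.53% of all genes. This scaling divides replicates 1, 2 and 3 by 0.909, 1.06 and 1.05, which raises replicate 1 relative to the others. Both counts fall by that arithmetic, and why the libraries differ was not tested. A mean TPM of 5 or more left 2 of the 4 members at least 1.5 times higher in replicate 3. It left 1 of the 2 at least 1.5 times lower there. These counts fell since it tests fewer genes. Members whose highest library was 2 times the lowest or more numbered 9, and 4 to 7 when a replicate was left out: 4 without replicate 1 (Ntn4, Sema3d, Sema3g and Slit3), 4 without replicate 3 (Efna3, Robo2, Sema3g and Sema6d). Of 60 recomputed family sums, 51 moved by less than 1 SD between libraries, and the other 9 all came from rescaling without ribosomal protein genes. No paired analysis was possible because the series has 1 group. Low members are limited by depth: those below 0.1 TPM in all libraries rest on few estimated fragments.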

Other observations

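Ratios of members to other genes were computed for 13 pairs chosen after their values were seen, and some were more even over the libraries than others. Sema4g stood at 2.30, 2.40 and 2.35 times the level of its receptor gene Plxnb2 in replicates 1, 2 and 3, at 2.70, 2.83 and 2.83 times that of Sema4a, and at 0.594, 0.711 and 0.746 times that of the epithelial gene Cdh1. Against lymphatic genes, Sema3d stood at 0.0244, 0.0249 and 0.0231 times Lyve1 but at 4.06, 3.15 and 2.75 times Prox1, and Ephb4 at 1.04, 1.07 and 1.56 times Flt4. Against fibroblast genes, Slit3 stood at 0.759, 0.806 and 0.816 times Pdgfra but at 0.0158, 0.0218 and 0.029 times Dcn. Robo4 stood at 0.0602, 0.0628 and 0.0767 times the endothelial gene Cldn5, Efna1 at 1.49, 1.48 and 1.39 times Ephb4 and at 8.35, 9.97 and 8.59 times Efna4. Slit3 stood at 5.48, 2.23 and 8.19 times Slit2 and Sema3f at 2.64, 1.76 and 1.44 times Nrp2. How even a ratio was thus differed between markers of the same cell type, and no ratio carries a test.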
